A study of Mus musculus with 6 samples.

Results

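The genes described here are 49 transcription factors that lay out the regions of the developing brain, followed in mouse brain tumours on an Illumina bead array that named 16593 genes. They were taken by symbol from the homeobox, paired-box, LIM, POU, Zic and T-box families, and sorted by the brain region each gene marks. The list was chosen with earlier results of these data known, so its counts beside all genes are descriptive. Of the 49 genes, 46 had at least 1 probe and together had 60 probes, while Emx1, Tshz2 and Barhl2 were not measured here. A probe counted as detected on an array when its detection p-value was under 0.05, and 28 of the 46 genes had a probe detected on at least 3 of the 6 arrays and were tested.

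All 6 tumours grew in the brains of SCID mice, a strain without mature lymphocytes, from transplanted mouse cells. Every tumour carried floxed p53 alleles (p53fl/fl) and hEGFRvIII, a truncated human EGF receptor that signals without ligand. The 3 Olig2cre/cre tumours carried cre at both Olig2 alleles, and the 3 Olig2cre/+ tumours carried it at 1 allele. The labelled ages were 45, 50 and 47 days for tumours 1, 2 and 3 of each genotype. Whether separate cell lines gave rise to the tumours of 1 genotype is not in the labels, and the p-values then reflect the spread between these 6 tumours alone. The array does not separate transplanted from host RNA, since both are of the mouse.

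Regional transcription factors are switched on in the embryo by signals from the midline, the anterior edge and the midbrain-hindbrain boundary. Each region keeps its own combination in the progenitors and neurons it makes. Nkx2-1, Six3, Six6, Rax, Otp and Isl1 mark hypothalamic territory, Emx, Tbr1 and Pax6 the cortex, Gsx1 and Gsx2 ventral forebrain progenitors, and En1, En2, Pax2 and Pax5 the midbrain-hindbrain boundary. Several of these factors stay on in adult neurons of the region.

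The arrays detected 53.4% to 57.6% of probes each. Over tested probes the Olig2cre/cre tumours correlated with each other at 0.886 (tumours 1 and 3), 0.912 (1 and 2) and 0.928 (2 and 3). Olig2cre/cre tumour 3 correlated with the Olig2cre/+ tumours at 0.914 to 0.941, while tumours 1 and 2 did so at 0.766 to 0.890. The Olig2 probe read log2 intensities of 6.41, 5.86 and 6.44 in Olig2cre/cre tumours, against 7.76, 7.85 and 7.13 in Olig2cre/+ tumours (limma adjusted p = 0.0555). That difference missed the threshold, and it is not known here if the probe covers the sequence that the cre allele replaces. Among glial markers, all 8 astrocyte genes and all 6 measured oligodendrocyte precursor genes were detected on at least 3 arrays. The 6 precursor genes were lower in the Olig2cre/cre mean, 1 of them called, with list means of -1.21, -2.49 and -1.67 in Olig2cre/cre tumours 1 to 3, against 0.39, 0.19 and -0.57 in Olig2cre/+ tumours 1 to 3, relative to the Olig2cre/+ mean. The 5 tested microglia or macrophage genes were higher in the Olig2cre/cre mean, 1 of them called. For comparison, 2.83% of all tested genes were called higher and 1.95% lower. The microglia or macrophage list means were 1.86, 0.38 and 0.69 in Olig2cre/cre tumours, against 0.26, -0.38 and 0.13 in Olig2cre/+ tumours. The part of these cells in the differences below was not tested.

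Across the 28 tested members, 1 gene was higher and 4 were lower in the Olig2cre/cre tumours at a limma adjusted p-value under 0.05. The gene that rose was En2, and those that fell were Isl1, Gsx1, Nkx2-1 and Cux2. Over all 9998 tested genes, 2.83% were called higher and 1.95% lower. The median difference over the 28 members, Olig2cre/cre minus Olig2cre/+, was -0.15 on the log2 scale, against 0.0028 over all tested genes. Setting Isl1 and Gsx1 at their bounds could not move this median, since both stay far below it. The groups did not overlap for 11 members, 8 of them lower and 3 higher in Olig2cre/cre, and over all tested genes these shares were 16.4% and 16.1%. A member that was bright in 1 group only could enter the test through that group, as Isl1 and Gsx1 did, so the counts describe the members and are not support for a shift of the list.

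**Figure D1:**
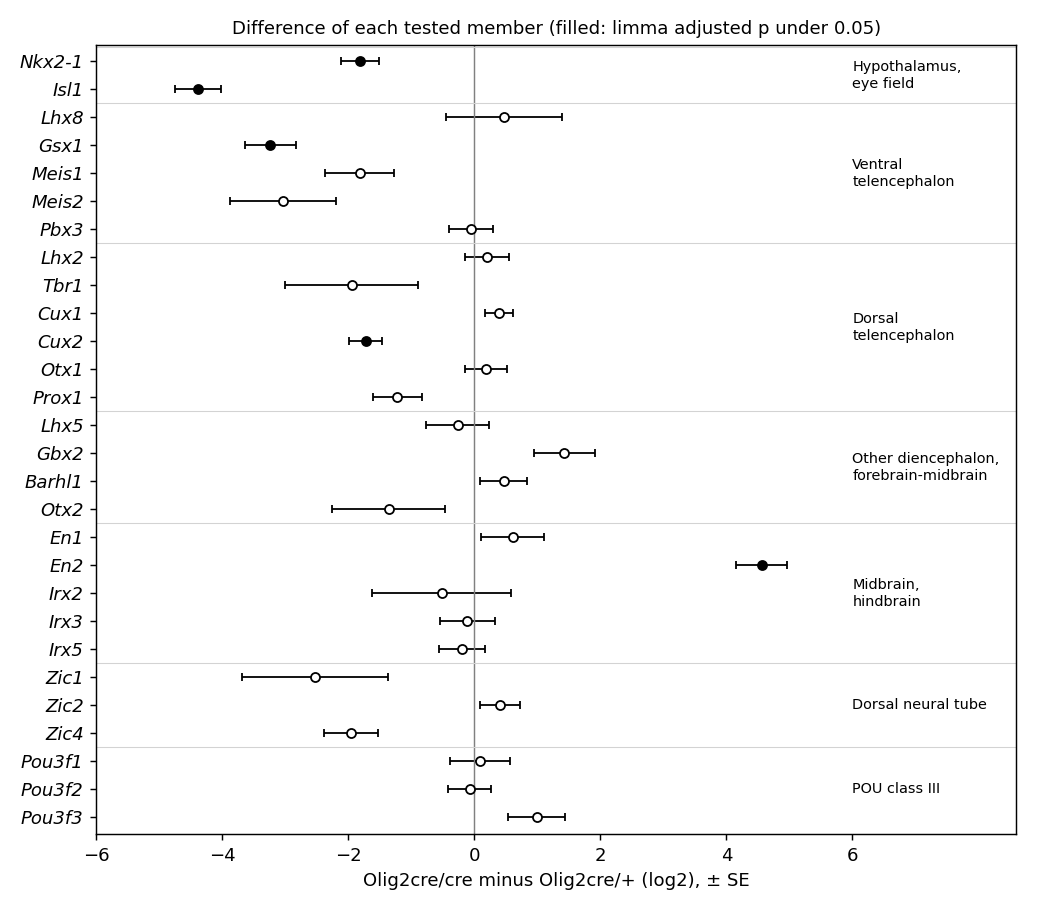
Difference of the 28 tested patterning factors, Olig2cre/cre minus Olig2cre/+, in log2 units with the moderated SE, 3 tumours per group, ordered by region; filled points passed the limma threshold. En2 lies at 4.56, Isl1 at -4.38, Gsx1 at -3.24, Nkx2-1 at -1.81 and Cux2 at -1.73, and the other 23 points are open, while no Olig2cre/cre array detected Isl1 or Gsx1, so their points are fitted values and their bounds are -3.74 and -2.53.

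En2, a homeobox factor of the midbrain-hindbrain boundary and cerebellum, rose in the Olig2cre/cre tumours. Its probe (ILMN_2726471, gene on chromosome 5) read 10.11, 11.16 and 11.20 in Olig2cre/cre tumours, against 6.06, 6.82 and 5.91 in Olig2cre/+ tumours. Every Olig2cre/cre value lay more than 3 log2 units above every Olig2cre/+ value, tumour 3 included, and the probe was detected on all 6 arrays. The means were 10.82 ± 0.62 in Olig2cre/cre and 6.26 ± 0.49 in Olig2cre/+ (SD, n = 3 each), a 23.6-fold difference (4.56 ± 0.40, SE, limma adjusted p = 0.00932). Without Olig2cre/+ tumour 1 the difference was 4.46 and missed the threshold (adjusted p = 0.0542), and it passed in the other 12 settings tried. Without background correction the difference was 3.17 (adjusted p = 0.0154), so the size of the fold depends on that correction.

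The other genes of the midbrain-hindbrain boundary did not pass with En2. En1, the closest relative of En2, read 6.29, 4.68 and 6.56 in Olig2cre/cre tumours, against 5.37, 5.39 and 4.95 in Olig2cre/+ tumours (0.61 ± 0.50, SE, limma adjusted p = 0.498). The En1 groups overlapped, and 2 Olig2cre/cre arrays and 1 Olig2cre/+ array detected the gene. Pax2 was detected on 1 array, of an Olig2cre/+ tumour, and Pax5 on no array. Gbx2, which sets the hindbrain side of the boundary and also marks the thalamus, read 11.18, 10.98 and 12.58 in Olig2cre/cre tumours, against 10.65, 10.12 and 9.68 in Olig2cre/+ tumours. These Gbx2 values did not overlap, with Olig2cre/cre tumour 3 highest, and the difference of 1.43 ± 0.48 (SE) missed the threshold (limma adjusted p = 0.123).

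Irx factors, which pattern the neural tube behind the anterior forebrain, did not pass. Irx3 differed by -0.11 ± 0.44 and its chromosomal neighbour Irx5 by -0.20 ± 0.36 (SE, limma adjusted p = 0.906 and 0.783). Irx2 read 5.72, 4.54 and 8.80 in Olig2cre/cre tumours, against 7.72, 7.36 and 5.54 in Olig2cre/+ tumours, so values spread over several log2 units within each group (-0.52 ± 1.10, SE, adjusted p = 0.815). Irx1 was detected on 1 Olig2cre/+ array and was not tested.

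Isl1, a LIM-homeobox factor of hypothalamic, striatal and motor neurons, fell below detection in all Olig2cre/cre tumours. Its probe (ILMN_2727472, gene on chromosome 13) read 4.55, 4.53 and 5.18 in Olig2cre/cre tumours, against 8.62, 9.0 and 9.78 in Olig2cre/+ tumours. No Olig2cre/cre array detected it and every Olig2cre/+ array did, so the level in Olig2cre/cre tumours is a bound. Isl1 was at least 13.3-fold lower in Olig2cre/cre (limma adjusted p = 0.00799), where the bound puts each undetected value at the faintest detected signal of the same array. Without Olig2cre/+ tumour 2 the call was lost (-4.45, adjusted p = 0.0601), and without background correction the difference was -2.21 (adjusted p = 0.0172).

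Gsx1, a homeobox factor of ventral forebrain progenitors that in mice is also needed for growth hormone-releasing hormone neurons of the hypothalamus, fell in the same way. It read 4.99, 4.56 and 4.53 in Olig2cre/cre tumours, against 8.56, 8.17 and 7.06 in Olig2cre/+ tumours (ILMN_2635818, gene on chromosome 5). The groups did not overlap, the closest values being 4.99 and 7.06. No Olig2cre/cre array detected the probe, so the level in Olig2cre/cre tumours is again a bound. Gsx1 was at least 5.78-fold lower in Olig2cre/cre (limma adjusted p = 0.0172). The call was lost without Olig2cre/cre tumour 2 (-3.17, adjusted p = 0.0572) and without Olig2cre/+ tumours 1 or 2 (-2.92 and -3.12, adjusted p = 0.0627 and 0.0972), and without background correction the difference was -1.37 (adjusted p = 0.0465).

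Nkx2-1, which specifies the ventral hypothalamus and the medial ganglionic eminence, was the other hypothalamic factor past the threshold. Its brighter probe (ILMN_1260212, gene on chromosome 12) read 5.64, 5.17 and 5.08 in Olig2cre/cre tumours, against 6.90, 6.87 and 7.56 in Olig2cre/+ tumours. The groups did not overlap, and 1 Olig2cre/cre array and 3 Olig2cre/+ arrays detected it. Nkx2-1 was 3.52-fold lower in Olig2cre/cre (-1.81 ± 0.30, SE, limma adjusted p = 0.0289), or 3.18-fold with its undetected values set at the faintest detected signal. A further Nkx2-1 probe was detected on no array. The call was lost without Olig2cre/cre tumour 2 (-1.75, adjusted p = 0.0849) or without Olig2cre/+ tumours 1, 2 or 3 (-1.92, -1.93 and -1.59, adjusted p = 0.0769, 0.120 and 0.0806), and without background correction the difference was -0.66 (adjusted p = 0.0693).

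**Figure D2:**
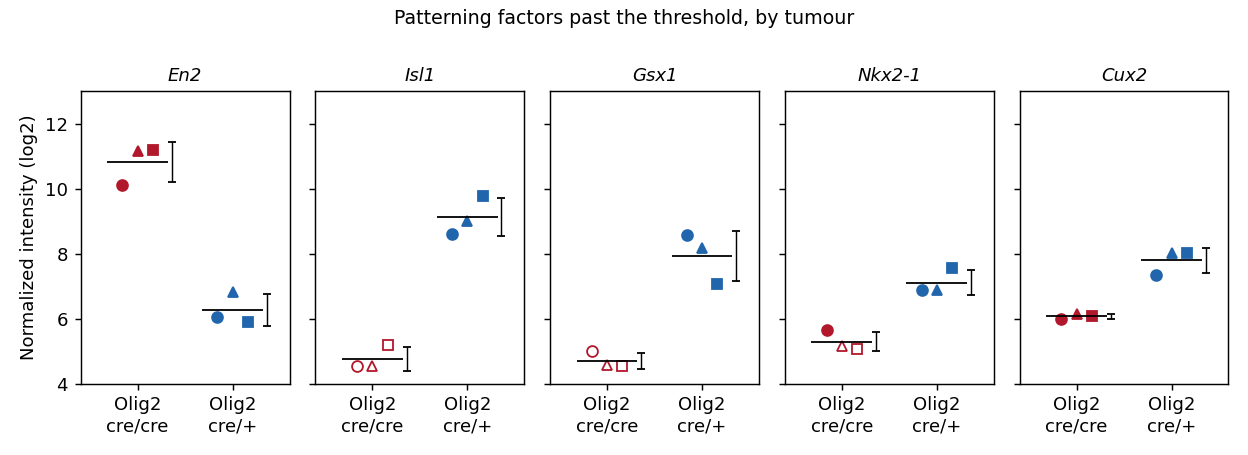
Normalized log2 intensity of the 5 patterning factors past the threshold in each tumour (circle, triangle and square for tumours 1, 2 and 3; open symbols not detected), with the group mean as a line and the SD as a bar. En2 is higher in every Olig2cre/cre tumour, the other 4 genes are lower in every one, and levels are not compared between probes.

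The start-site windows of the 3 ventral forebrain and hypothalamic factors that fell are shown because Olig2 is a basic helix-loop-helix factor, a class that binds E-boxes. Each window runs from 250 bases before to 50 bases after the annotated start (RefSeq, GRCm38.p6), is written 5′ to 3′ on the gene's strand, and has the E-box CANNTG in capitals. En2 is not in the table of windows.
Isl1, chr13:116309639-116309938, - strand: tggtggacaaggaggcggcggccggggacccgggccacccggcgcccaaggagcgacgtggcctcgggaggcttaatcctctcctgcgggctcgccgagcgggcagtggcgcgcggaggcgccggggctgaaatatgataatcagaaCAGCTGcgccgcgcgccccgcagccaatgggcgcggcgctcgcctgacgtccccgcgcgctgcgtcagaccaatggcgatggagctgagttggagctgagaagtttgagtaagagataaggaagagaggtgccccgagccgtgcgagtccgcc
Gsx1, chr5:147188446-147188745, + strand: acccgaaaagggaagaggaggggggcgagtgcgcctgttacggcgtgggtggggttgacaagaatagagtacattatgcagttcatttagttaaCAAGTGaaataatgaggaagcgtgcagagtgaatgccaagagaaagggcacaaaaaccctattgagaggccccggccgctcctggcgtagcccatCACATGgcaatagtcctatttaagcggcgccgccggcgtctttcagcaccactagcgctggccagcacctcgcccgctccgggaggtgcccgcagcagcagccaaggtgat
Nkx2-1, chr12:56536859-56537158, - strand: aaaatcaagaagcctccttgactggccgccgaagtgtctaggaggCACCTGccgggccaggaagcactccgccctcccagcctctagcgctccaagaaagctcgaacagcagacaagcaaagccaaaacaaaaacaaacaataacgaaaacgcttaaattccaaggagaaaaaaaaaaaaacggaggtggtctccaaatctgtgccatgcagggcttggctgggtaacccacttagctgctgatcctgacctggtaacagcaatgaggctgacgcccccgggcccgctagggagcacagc
The Isl1 window held 1 E-box, the Gsx1 window 2 and the Nkx2-1 window 1. CANNTG reads the same on both strands, and 72.3% of all 32851 windows of that length held at least 1. The homeodomain core TAATTA, which also reads the same on both strands and cannot overlap an E-box, was in none of these 3 windows and in 5.29% of all windows. Among the 48 windows of 38 members with an entry, 29 held an E-box and 5 held TAATTA. A match is a description of the letters and not a binding site.

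Most other hypothalamic and eye-field factors were below detection in tumours of both genotypes. Six3, Six6, Rax, Otp and Vax1 were detected on no array, Otp being a factor of neuroendocrine neurons and Rax of the hypothalamic floor and retina. Vax2, a ventral eye factor, read 4.77, 5.73 and 5.38 in Olig2cre/cre tumours, against 4.97, 4.64 and 4.56 in Olig2cre/+ tumours, and was detected on 2 Olig2cre/cre arrays. An undetected probe gives only an upper bound, so these genes were not compared.

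Most tested genes of a list of neuropeptides, named here for the hypothalamus, were lower in the Olig2cre/cre mean, as were Isl1, Gsx1 and Nkx2-1. The list is of peptide genes and was not shown to mark hypothalamic neurons alone. Of its 11 tested genes, 9 were lower in that mean and 2 higher. Of these 11, 7 were called lower and none higher, beside 1.95% and 2.83% of all tested genes. The mean of that list, relative to the Olig2cre/+ mean, was -3.51, -2.88 and -2.99 in Olig2cre/cre tumours 1 to 3, against -0.09, -0.55 and 0.63 in Olig2cre/+ tumours 1 to 3. Trh, Oxt, Avp and Nts were detected on no Olig2cre/cre array. They entered the test through the Olig2cre/+ group, so the counts describe the list and are not support for a shift of it. Growth hormone-releasing hormone itself (Ghrh) read 5.78, 7.99 and 4.93 in Olig2cre/cre tumours, against 7.33, 6.27 and 7.10 in Olig2cre/+ tumours, with groups that overlapped (limma adjusted p = 0.634). In bulk tumours fewer cells of a type and less RNA per cell cannot be told apart, and the part of the hypothalamic neurons in these differences was not tested.

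General neuron markers were ordered differently among the Olig2cre/cre tumours. All 11 tested neuron genes were lower in the Olig2cre/cre mean and none passed the threshold. Their list mean was -5.23, -2.89 and -0.65 in Olig2cre/cre tumours 1 to 3, against -0.77, -0.01 and 0.79 in Olig2cre/+ tumours 1 to 3. In Olig2cre/cre tumour 3, whose neuron mean was -0.65, Isl1 and Gsx1 were not detected, the neuropeptide mean was -2.99 and En2 read 11.20. The part of neurons in general in these differences was not tested.

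Cux2, a cut-homeobox factor of upper-layer cortical neurons, was the 1 dorsal forebrain gene past the threshold. Its tested probe (ILMN_1234471, gene on chromosome 5) read 6.00, 6.13 and 6.08 in Olig2cre/cre tumours, against 7.35, 8.02 and 8.02 in Olig2cre/+ tumours. The Olig2cre/cre tumours lay within 0.13 log2 units of each other, and Cux2 was 3.31-fold lower in them (-1.73 ± 0.27, SE, limma adjusted p = 0.0252). The call was lost without Olig2cre/cre tumours 1 or 2 (-1.69 and -1.76, adjusted p = 0.0517 and 0.0723) or Olig2cre/+ tumours 1, 2 or 3 (-1.95, -1.62 and -1.62, adjusted p = 0.0611, 0.138 and 0.0850), and without background correction the difference was -0.82 (adjusted p = 0.0499). Of the remaining Cux2 probes, 1 was detected on 2 Olig2cre/cre arrays and on no Olig2cre/+ array, and the other on none. The related Cux1 did not pass with either tested probe (0.39 and 0.17, adjusted p = 0.330 and 0.859).

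Other cortical and hippocampal factors missed the threshold. Prox1, a factor of dentate granule cells and of several interneurons, read 7.04, 7.93 and 7.55 in Olig2cre/cre tumours, against 9.18, 8.96 and 8.05 in Olig2cre/+ tumours. Its groups did not overlap, the closest values being 7.93 and 8.05 (-1.22 ± 0.38, SE, limma adjusted p = 0.109). Tbr1, of deep-layer cortical neurons, read 4.68, 5.50 and 4.83 in Olig2cre/cre tumours, against 4.62, 6.91 and 9.32 in Olig2cre/+ tumours. The Olig2cre/+ tumours thus ran from undetected to bright for Tbr1, and the difference of -1.95 ± 1.05 (SE) did not pass (adjusted p = 0.303). Otx1 and Lhx2 differed by 0.18 ± 0.33 and 0.20 ± 0.34 (SE, adjusted p = 0.778 and 0.760). Emx2, Pax6 and Eomes were detected on no array.

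Meis1 and Meis2, cofactors of Hox and Pbx proteins that mark the striatal primordium, were lower in the mean of the Olig2cre/cre tumours without passing. Meis2 read 8.04, 7.24 and 10.69 in Olig2cre/cre tumours, against 11.14, 11.63 and 12.32 in Olig2cre/+ tumours (-3.04 ± 0.85, SE, limma adjusted p = 0.0865). Meis1 read 8.09, 7.71 and 9.74 in Olig2cre/cre tumours, against 10.45, 10.72 and 9.83 in Olig2cre/+ tumours (-1.82 ± 0.55, SE, adjusted p = 0.0995). For each gene the groups did not overlap, and Olig2cre/cre tumour 3 lay close under the lowest Olig2cre/+ tumour. Their partner Pbx3 differed by -0.05 and -0.09 on its tested probes (adjusted p = 0.949 and 0.906). Lhx8, a factor of basal forebrain cholinergic neurons, read 6.45, 8.25 and 4.66 in Olig2cre/cre tumours, against 5.02, 5.88 and 7.05 in Olig2cre/+ tumours (adjusted p = 0.797), and Gsx2 was detected on no array.

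Zic1 and Zic4, zinc-finger factors of the dorsal neural tube and cerebellar granule lineage, split the Olig2cre/cre tumours. Zic1 read 5.40, 6.66 and 10.46 in Olig2cre/cre tumours, against 10.09, 9.81 and 10.20 in Olig2cre/+ tumours. Olig2cre/cre tumours 1 and 2 lay at least 3 log2 units below every Olig2cre/+ tumour and tumour 3 lay above them all (-2.53 ± 1.16, SE, limma adjusted p = 0.229). Zic4 read 4.47, 4.82 and 6.03 in Olig2cre/cre tumours, against 7.19, 7.23 and 6.79 in Olig2cre/+ tumours. Its groups did not overlap, and its difference of -1.96 ± 0.42 (SE) fell short of the threshold (adjusted p = 0.0511). Zic4 was not detected in Olig2cre/cre tumours 1 and 2, nor Zic1 in Olig2cre/cre tumour 1. With undetected values set at the faintest detected signal, the differences were -1.44 for Zic4 and -2.49 for Zic1. Zic2 differed by 0.40 ± 0.32 (SE, adjusted p = 0.482), while Pax3 and Pax7 were detected on no array.

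Zic1 and Zic4 are neighbours on chromosome 9, on opposite strands. Their start-site windows are shown because both genes were brightest in tumour 3 among the Olig2cre/cre tumours. Capitals again mark CANNTG (RefSeq, GRCm38.p6, 5′ to 3′ on the gene's strand).
Zic1, chr9:91365719-91366018, - strand: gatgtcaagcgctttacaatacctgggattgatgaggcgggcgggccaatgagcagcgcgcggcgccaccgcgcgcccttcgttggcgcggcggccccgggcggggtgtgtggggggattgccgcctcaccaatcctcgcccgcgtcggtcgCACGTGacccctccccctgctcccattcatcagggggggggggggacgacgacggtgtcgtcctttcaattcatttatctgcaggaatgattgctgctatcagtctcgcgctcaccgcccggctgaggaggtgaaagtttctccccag
Zic4, chr9:91368722-91369021, + strand: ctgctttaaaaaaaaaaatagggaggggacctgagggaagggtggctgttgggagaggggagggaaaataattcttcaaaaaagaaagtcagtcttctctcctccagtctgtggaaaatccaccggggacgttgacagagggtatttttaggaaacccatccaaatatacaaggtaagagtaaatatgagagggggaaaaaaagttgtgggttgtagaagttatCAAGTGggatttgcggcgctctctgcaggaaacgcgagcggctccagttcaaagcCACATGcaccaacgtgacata
The windows lie 2703 bases apart and held 1 and 2 E-boxes. TAATTA was in neither.

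Otx2, of the anterior forebrain, midbrain and choroid plexus, had the same split. It read 5.10, 4.62 and 8.13 in Olig2cre/cre tumours, against 7.15, 7.99 and 6.79 in Olig2cre/+ tumours (-1.36 ± 0.89, SE, limma adjusted p = 0.393). Otx2 was not detected in Olig2cre/cre tumours 1 and 2. Its difference was -0.98 with those values set at the faintest detected signal. Lhx5, a LIM factor of the diencephalon and of Purkinje cell precursors, read 4.73, 4.67 and 6.48 in Olig2cre/cre tumours, against 5.57, 5.77 and 5.34 in Olig2cre/+ tumours (adjusted p = 0.787). Lhx5 was not detected in Olig2cre/cre tumours 1 and 2, and with those values set at the faintest detected signal its difference of -0.26 became 0.22, so its order of tumours is not established. For Zic1 and Otx2, Olig2cre/cre tumour 3 was the highest of the 6 tumours while tumours 1 and 2 lay below every Olig2cre/+ tumour. Lhx1, the relative of Lhx5, was detected on 1 array, that of Olig2cre/cre tumour 3, where it read 7.08. Barhl1, of the mammillary and cerebellar granule lineages, differed by 0.47 ± 0.37 (SE, adjusted p = 0.485), and Lhx9 was detected on no array.

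**Figure D3:**
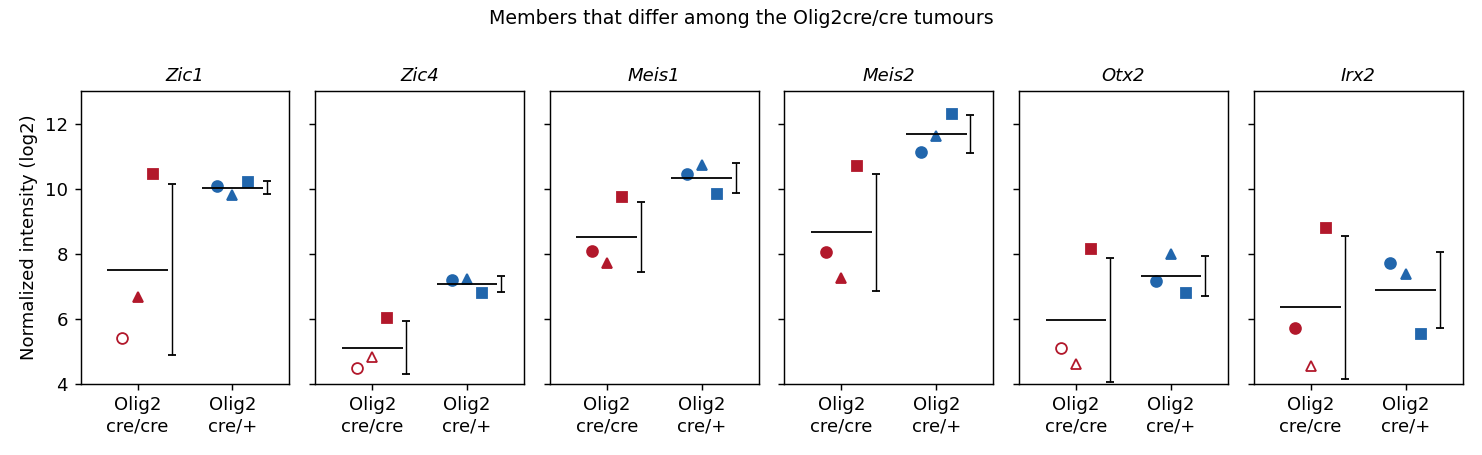
Normalized log2 intensity in each tumour of 6 members that differ among the Olig2cre/cre tumours (circle, triangle and square for tumours 1, 2 and 3; open symbols not detected), with the group mean as a line and the SD as a bar. Olig2cre/cre tumour 3 is the brightest of its group in each panel, at 10.46 for Zic1 and 8.13 for Otx2.

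Among the 28 tested members, tumour 3 was more than 1 log2 unit above both other Olig2cre/cre tumours for 8, against 6.24% of all tested genes. With undetected values set at the faintest detected signal the number was 6, against 5.86%. For Lhx8 and Pou3f3, tumour 3 lay more than 1 log2 unit below both others, and the share of all genes in that direction was not counted. The neuron and oligodendrocyte list means were highest in tumour 3 among the Olig2cre/cre tumours. In both lists tumour 1 lay below tumour 2. Of the 8 members brighter in tumour 3, Zic1 had that order, and Meis1, Meis2, Irx2 and Gbx2 were lower in tumour 2. Zic4, Otx2 and Lhx5 were detected in neither tumour 1 nor tumour 2, so their order is not established. Oligodendrocyte means were -5.08, -4.17 and -0.98 in Olig2cre/cre tumours 1 to 3, against -0.10, 0.11 and -0.01 in Olig2cre/+ tumours 1 to 3. The part of these cells in the split was not tested. Without Olig2cre/cre tumour 3, 9 members were called lower and 2 higher, beside 7.31% and 5.85% of all probes. The lower calls gained were Zic1 (-4.01, limma adjusted p = 0.00507), Zic4 (-2.42, adjusted p = 0.00701), Meis1 (-2.43, adjusted p = 0.0106), Meis2 (-4.06, adjusted p = 0.00557) and Otx2 (-2.45, adjusted p = 0.0159). Neither remaining Olig2cre/cre array detected Zic4 or Otx2, so these genes were tested through the Olig2cre/+ group. Zic1 was not detected in Olig2cre/cre tumour 1. The differences of Zic1, Zic4 and Otx2 are therefore fitted values that include signal below detection. The gain among higher calls was Pou3f3 (1.44, adjusted p = 0.0491), and the 5 calls of the full set remained. Tumour 3 was the highest of its group for every lower call gained, and the lowest for Pou3f3. Larger differences without it were thus fixed in advance, and the gained calls are a description and not support.

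**Figure D4:**
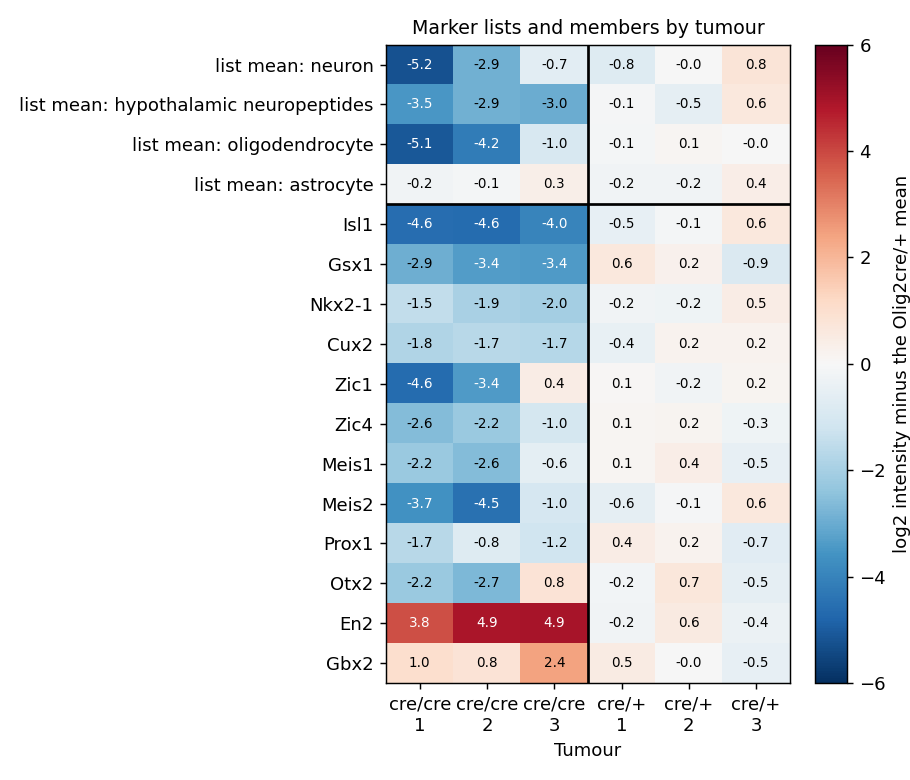
Log2 intensity minus the Olig2cre/+ mean in each tumour, for the means of 4 marker lists (above the line) and 12 patterning factors; red is higher and blue lower. The neuron mean is -5.23, -2.89 and -0.65 in Olig2cre/cre tumours 1 to 3, the hypothalamic neuropeptide mean is -3.51, -2.88 and -2.99, and En2 is higher in all of them.

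POU class III factors, which are broad factors of neural progenitors and glia rather than of 1 region, did not pass. Pou3f3 read 7.61, 8.08 and 6.50 in Olig2cre/cre tumours, against 6.67, 6.68 and 5.86 in Olig2cre/+ tumours (0.99 ± 0.46, SE, limma adjusted p = 0.229). Pou3f1 read 12.25, 10.81 and 10.55 in Olig2cre/cre tumours, against 11.15, 11.46 and 10.72 in Olig2cre/+ tumours, with values that overlapped (adjusted p = 0.927). Pou3f2 differed by -0.07 ± 0.35 (SE, adjusted p = 0.920). Pou3f4 was detected on 2 Olig2cre/+ arrays and was not tested.

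By region, the 2 tested hypothalamic factors of 8 were both called lower. Their median difference was -3.10, or -2.77 with Isl1 at its bound and Nkx2-1 as fitted. All 3 Olig2cre/+ arrays detected each gene, while no Olig2cre/cre array detected Isl1 and 1 detected Nkx2-1. Both could thus enter the test through the Olig2cre/+ group, and the median describes these 2 genes rather than the region. Ventral telencephalic factors, Gsx1 among them, had 1 of 5 tested genes called lower, 4 with a difference below 0 and a median difference of -1.82. Dorsal telencephalic factors had 1 of 6 called lower, 3 below 0 and a median of -0.52. The diencephalic and forebrain-midbrain group had none of 4 called and a median of 0.10, and the POU group none of 3 and a median of 0.09. Midbrain and hindbrain factors had En2 called higher among 5 tested, with a median of -0.11. The dorsal neural tube group had none of 3 called and a median of -1.96. Over all tested genes, 2.83% were called higher and 1.95% lower, and these groups are small.

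A list of 71 further patterning factors was followed beside the members. Of 61 with a probe, 27 were detected on no array and 19 were tested, of which 1 rose and 1 fell, beside 2.83% and 1.95% of all tested genes. Gata2, a factor of midbrain and hindbrain interneurons and of blood cells, read 8.62, 8.43 and 8.55 in Olig2cre/cre tumours, against 6.14, 6.58 and 7.10 in Olig2cre/+ tumours (1.93 ± 0.29, SE, limma adjusted p = 0.0247). These groups did not overlap, and the call was lost without Olig2cre/cre tumour 2 (1.98, adjusted p = 0.0705) or Olig2cre/+ tumours 1 or 2 (1.70 and 1.92, adjusted p = 0.0715 and 0.131). Without background correction the Gata2 difference was 1.10 (adjusted p = 0.0257). Of the endothelial markers, genes of a cell type in which Gata2 is also known to act, 3 of 6 tested were called higher. The endothelial list mean was 2.05, 1.15 and 1.49 in Olig2cre/cre tumours 1 to 3, against -0.19, 0.09 and 0.10 in Olig2cre/+ tumours 1 to 3, and its part in the Gata2 difference was not tested. Hoxa4, a Hox factor of the hindbrain and spinal cord, read 4.94, 4.86 and 5.00 in Olig2cre/cre tumours, against 7.43, 7.22 and 6.06 in Olig2cre/+ tumours, and was at least 2.84-fold lower in Olig2cre/cre (adjusted p = 0.0408). The Hoxa4 call was lost without Olig2cre/cre tumours 1 or 2 (-1.98 and -1.94, adjusted p = 0.0767 and 0.112) or Olig2cre/+ tumours 1 or 2 (-1.71 and -1.82, adjusted p = 0.108 and 0.179), and without background correction (-0.69, adjusted p = 0.0921). It was also lost on the authors' normalized values (-0.69, adjusted p = 0.0918) and with every probe tested (adjusted p = 0.0762).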

How the data were processed

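Transcripts of 6 tumours, 3 per genotype, were measured on single-colour Illumina arrays of biotin-labelled cRNA, per the labels' protocols. The deposited table gives signal intensity on a linear scale and a detection p-value per probe and array, per the file headers, for 25697 probes; the signals were not normalized or background-subtracted. A second table from the authors holds normalized intensity, with a median of 193.8 in every column, whose ranks match those of the signals, but with tumour numbers 1 and 3 exchanged within each genotype. Tumours are numbered here by the table of signals, so which of 45 and 47 days belongs to numbers 1 and 3 is uncertain. Sources used here do not name the scanner software, slides or scan batches.

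Signals were corrected with normexp (controls inferred from detection p-values), offset by 16, normalized by quantiles and log2-transformed (neqc, limma 3.58.1, R 4.3.3). The 14606 probes detected on at least 3 of 6 arrays were fitted with genotype as the only term (lmFit and eBayes, two-sided), with Benjamini-Hochberg adjustment over all of them and a threshold of 0.05. A gene was represented by its brightest tested probe. Names came from the platform annotation (23978 probes named, 1719 unnamed here, 23962 matched to current symbols). Alternatives were other background, normalization, filter and weighting choices, the authors' values, a replicate block and leaving out each tumour. The labels state no pairs, so the numbers were not taken as pairs, although same-numbered tumours share a labelled age. Deviations of same-numbered tumours correlated at 0.19, 0.02 and 0.30, against -0.30 to 0.10 for different numbers. With 3 tumours per group these values cannot decide whether the tumours were paired. The fit was tested on simulated data. The number of arrays limits the precision. All members were described. Values per tumour were given for members past the threshold, members without overlap and a difference of at least 1, the 2 most different tested members of each region, and others where their values split the tumours, chosen after they were seen. Members and lists were chosen with earlier results of these data known.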

Additional observations from a re-analysis of the deposited data

How the results depend on the processing

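Over the settings that did not leave out a tumour, En2 passed in all 7 and Isl1 and Gsx1 in the 6 that tested them. The number of probes called over the array was 645, but 410 without background correction, 411 on the authors' values, 1860 with array weights, 230 with every probe tested and 1382 with the replicate block. Leaving out single tumours gave 9 to 1922 probes, 0 to 9 members called lower and 0 to 2 called higher. Members called lower numbered 1 among probes detected on all 6 arrays, which leaves out Isl1, Gsx1 and Nkx2-1, and 8 with array weights. With the replicate block 5 were called lower, Meis2 being gained, and no call of a member was lost; Nkx2-1 was not called without background correction, with every probe tested (adjusted p = 0.0502) or on the authors' values (adjusted p = 0.0691). The share of calls higher in Olig2cre/cre was 60%, but 43.4% with the replicate block, 70.1% among probes detected on all 6 arrays and 44.4% to 72.4% without single tumours. The members' median difference ran from -0.44 to 0.09 and was above 0 among probes detected on all 6 arrays only.

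Direction turned for members that had not passed: with array weights Pbx3 was 0.17, Pou3f1 -0.29 and Pou3f2 0.032. Leaving out single tumours, the differences ran from -0.36 to 0.24 for Pbx3, -0.092 to 0.40 for Lhx2, -0.0050 to 0.53 for Otx1, -0.86 to 0.046 for Lhx5, -0.43 to 0.42 for Pou3f1, -0.43 to 1.37 for Lhx8, -1.74 to 0.39 for Irx2, -0.54 to 0.23 for Irx3, -0.50 to 0.11 for Irx5 and -0.40 to 0.19 for Pou3f2. Apart from the smaller sets of probes or tumours, the cause was not tested. Low signal is a further limit, since 13 of the 46 measured members were detected on no array.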
